A study of Caenorhabditis elegans with 2 samples.

Results

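Small nucleolar RNA (snoRNA) genes with SEM-4 binding at or near their start were followed through the SEM-4 ChIP-seq peak lists of C. elegans. SEM-4 belongs to the Spalt group of zinc-finger DNA-binding proteins. A snoRNA gene was a member if at least 1 peak summit of the pooled relaxed list lay between 1000 bp upstream and 200 bp downstream of its annotated start. Of 346 annotated snoRNA genes, 219 were members (63.3%). They were chosen by the measured summits, so the presence of a summit in a member is how it was selected and not a finding about it.

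Both samples came from whole L2 larvae of strain OP57, with the genotype unc-119(ed3) III; wgIs57, in which wgIs57 is an integrated eGFP-tagged sem-4 transgene. They are biological replicates 1 and 2 of 1 group, pooled over males and females, and the age in hours is not known from the labels. The design has no second condition, so every comparison here is between genes or regions of the same samples. The cells in which a region was bound cannot be told from whole animals, the promoter and copy number of the transgene are not given in the sources used here, and the control library was not analysed here.

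The pooled and both replicate lists held 30000 peaks each. The reproducible list held 2490 peaks, which were the 2490 pooled peaks of highest signal, from a signal of 40.3 upward. Signal is the authors' own value per peak and serves only to rank peaks of the same list. Without read counts the depth is unknown, and no counting error can be given for a peak.

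snoRNAs guide the chemical modification of other RNAs, chiefly ribosomal RNA, in the nucleolus. Box C/D snoRNAs direct 2'-O-methylation with the methyltransferase fibrillarin, and box H/ACA snoRNAs direct pseudouridylation with dyskerin. Many animal snoRNAs are processed from introns of host genes, often genes for ribosomal or translation proteins, while others are transcribed from promoters of their own. Among promoters of small RNA genes, the proximal sequence element (PSE) marks snRNA-type genes, and the A box and B box are the internal promoter elements of tRNA-type genes, which RNA polymerase III transcribes.

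The start regions of 24 members held 1 kind of sequence element on the strand of the snoRNA, and those of another 25 held a second kind. Examples with a strong summit at the start are shown to let the element be compared with the summit positions given further on. They are not in every case the genes of highest signal. Both patterns were written down after the sequences had been seen. The first is a PSE-like element, AACNNG followed after 5 further bases by TGTC. It is in capitals in the 110 bases before each start below, which lie on ce11 at chrII:15025894-15026003 (minus strand) for Y53F4B.47, chrV:8500469-8500578 (plus strand) for ZK994.7, chrV:8228970-8229079 (minus strand) for C16D9.11, chrIV:9511467-9511576 (minus strand) for smy-2 and chrIV:8428740-8428849 (minus strand) for T26A8.6.
Y53F4B.47: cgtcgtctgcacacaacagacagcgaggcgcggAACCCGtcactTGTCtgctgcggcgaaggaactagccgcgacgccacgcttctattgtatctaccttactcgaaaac
ZK994.7: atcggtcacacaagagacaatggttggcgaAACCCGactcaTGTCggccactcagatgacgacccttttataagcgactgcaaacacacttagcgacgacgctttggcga
C16D9.11: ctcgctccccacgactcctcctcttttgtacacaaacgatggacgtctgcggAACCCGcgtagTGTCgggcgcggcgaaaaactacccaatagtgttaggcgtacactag
smy-2: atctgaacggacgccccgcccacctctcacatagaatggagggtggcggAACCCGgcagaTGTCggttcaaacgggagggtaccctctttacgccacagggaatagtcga
T26A8.6: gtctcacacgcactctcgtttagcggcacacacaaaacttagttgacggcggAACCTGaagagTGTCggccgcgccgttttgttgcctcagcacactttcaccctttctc

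The second is a tRNA-like pair of boxes. The A box was searched as TGGNNNA followed after 2 or 3 bases by GG, and the B box as GTTCNANNC starting 25 to 90 bases after the start of the A box. Both are in capitals in the 110 bases before each start below, at chrV:12303598-12303707 (plus strand) for C51F7.3, chrV:15191094-15191203 (minus strand) for Y75B12B.12, chrV:11314148-11314257 (plus strand) for T03F7.8, chrII:9774835-9774944 (minus strand) for T10B9.11 and chrII:10840207-10840316 (plus strand) for M106.6. The pair shown for C51F7.3 lies inside its upstream neighbour C51F7.4, which is also annotated as a snoRNA gene, so these 2 genes share it.
C51F7.3: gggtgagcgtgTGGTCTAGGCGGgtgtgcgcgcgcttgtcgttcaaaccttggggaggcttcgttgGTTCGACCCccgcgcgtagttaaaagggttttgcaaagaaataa
Y75B12B.12: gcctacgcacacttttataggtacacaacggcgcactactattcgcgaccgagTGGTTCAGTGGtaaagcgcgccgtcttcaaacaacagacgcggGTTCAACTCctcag
T03F7.8: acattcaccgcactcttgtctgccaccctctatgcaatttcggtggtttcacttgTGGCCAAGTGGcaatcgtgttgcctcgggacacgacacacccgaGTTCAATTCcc
T10B9.11: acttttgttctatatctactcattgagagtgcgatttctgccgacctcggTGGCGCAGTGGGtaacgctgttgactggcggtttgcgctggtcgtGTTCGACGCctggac
M106.6: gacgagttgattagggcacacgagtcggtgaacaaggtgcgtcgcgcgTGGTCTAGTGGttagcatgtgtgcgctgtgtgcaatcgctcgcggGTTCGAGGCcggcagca

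The RNAs themselves are shown for both box classes, with all 4 examples inside protein-coding genes. K11H12.13, in the ribosomal protein gene rpl-15, and F54E7.10, in rps-12, end in the ACA box typical of H/ACA snoRNAs (capitals), at chrIV:654229-654361 (minus strand) for K11H12.13 and chrIII:5679378-5679509 (plus strand) for F54E7.10.
K11H12.13: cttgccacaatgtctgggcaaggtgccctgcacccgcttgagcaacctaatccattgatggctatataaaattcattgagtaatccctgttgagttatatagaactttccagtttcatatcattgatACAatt
F54E7.10: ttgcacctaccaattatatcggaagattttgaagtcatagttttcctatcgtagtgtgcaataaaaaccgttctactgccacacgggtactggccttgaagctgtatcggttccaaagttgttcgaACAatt
C51F7.3, in frm-7, and F55A11.10, in F55A11.6, carry boxes C and D (capitals: TGATGA and CTGA), at chrV:12303708-12303783 (plus strand) for C51F7.3 and chrV:11782992-11783082 (plus strand) for F55A11.10.
C51F7.3: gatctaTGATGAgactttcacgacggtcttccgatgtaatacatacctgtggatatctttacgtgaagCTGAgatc
F55A11.10: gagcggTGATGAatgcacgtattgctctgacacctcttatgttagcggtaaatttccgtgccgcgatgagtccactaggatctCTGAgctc

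A pooled relaxed summit in the start window was found at 63.3% of snoRNA genes, against 35.2% of all 46890 annotated genes. The share was 64.4% for the 612 tRNA genes, 49.5% for 7764 ncRNA genes, 41.8% for 261 miRNA genes, 36.1% for 19973 protein-coding genes, 33.3% for 129 snRNA genes and 28.1% for 15363 piRNA genes. snoRNA and tRNA genes thus headed the larger classes, 1.08 percentage points apart. A reproducible summit lay in the window of 92 snoRNA genes (26.6%), against 5.76% of all genes, 14.1% of tRNA genes and 8.05% of protein-coding genes. Among genes that had any pooled summit, 42.0% of the snoRNA genes had a reproducible one, against 16.4% of all such genes and 21.8% of the tRNA genes. No test accompanies these shares, since the group of genes was picked with them known and neighbouring genes can share a summit. The best signal of a member had a median of 33.2 (quartiles 15.7 and 57.0), against 15.8 over all genes with a pooled summit.

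**Figure D1:**
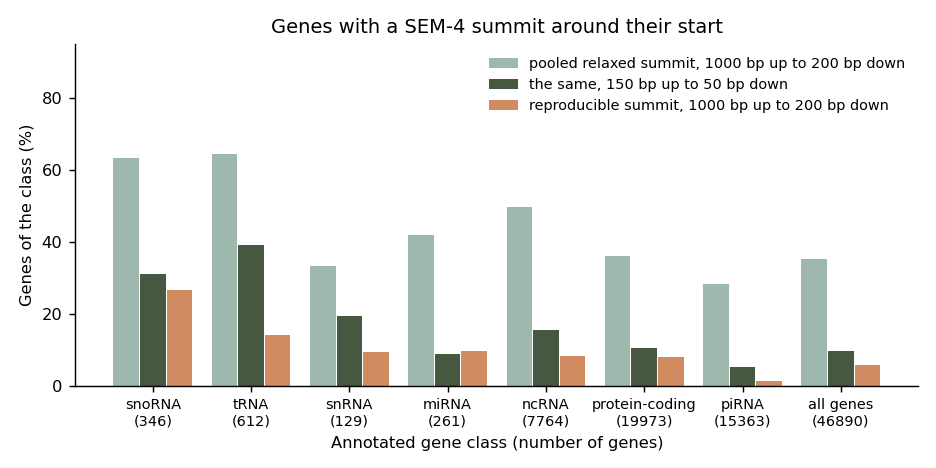
Share of genes (y axis, %) with a SEM-4 summit around their start, for 7 annotated classes and all genes (x axis, number of genes in brackets). The 3 bars are pooled relaxed summits in the wide window, the same in the start-proximal window, and reproducible summits in the wide window. snoRNA genes reach 63.3%, 30.9% and 26.6%, against 35.2%, 9.59% and 5.76% of all genes.

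The 219 members fell into 4 classes by location and by promoter sharing. Inside a protein-coding gene were 128 members, of which 60 had a summit that also lay in a protein-coding promoter window (1000 bp upstream to 200 bp downstream of a transcript start) and 68 did not. Outside protein-coding genes were 91 members, 39 with and 52 without such sharing. A reproducible summit was found for 34 of the 60 and 22 of the 39 with a shared promoter, whether or not it was the summit in the promoter window, against 18 of the 68 and 18 of the 52 without. Median best signals were 44.0 (inside, shared), 20.4 (inside, not shared), 49.7 (outside, shared) and 29.3 (outside, not shared). Of all 346 snoRNA genes, 216 lay inside a protein-coding gene, and 128 of these 216 (59.3%) were members, against 91 of the 130 outside (70.0%). Inside members shared their best summit more often than outside ones: the 128 had 118 distinct best summits and the 91 had 91.

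Summits gathered at the snoRNA starts. Of the 219 best summits, 184 (84.0%) lay upstream of the start, in a window of which most is upstream. That share was near the 81.6% of all genes with a pooled summit, and below the 89.4% of protein-coding genes with one. In the 100 bp just before the start lay 68 (31.1%), against 11.5% over all genes with a pooled summit. The same 100 bp held 32.7% of the best summits of tRNA genes with a summit, 48.8% of those of snRNA genes and 12.2% of those of protein-coding genes. By 50-bp bin, the count of members was 36 from 100 to 50 bp upstream and 32 in the next 50 bp, while each bin farther than 150 bp upstream held 3 to 11. The median position was 134 bp upstream for all members, 476.5 bp upstream for those inside a gene with a shared promoter, and 99, 89 and 81 bp upstream for inside and not shared, outside and shared, and outside and not shared.

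**Figure D2:**
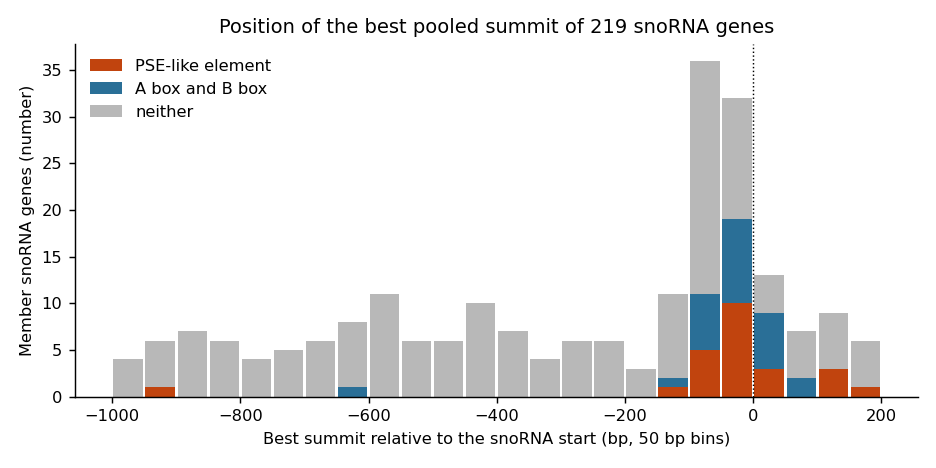
Number of member snoRNA genes (y axis) by the position of their best pooled summit relative to the annotated snoRNA start (x axis, bp, 50-bp bins, dotted line at the start). Colours give the sequence element on the snoRNA's strand. The bins from 100 bp upstream to the start hold 68 of the 219 members.

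A window from 150 bp upstream to 50 bp downstream, set after these positions had been seen, is called start-proximal. It held a pooled summit at 107 snoRNA genes (30.9%), against 9.59% of all genes, and a reproducible one at 47 (13.6%), against 1.67% of all genes. For tRNA genes these shares were 39.2% and 9.48%, and for protein-coding genes 10.4% and 2.15%. Start-proximal summits were found at 52 of the 216 snoRNA genes inside protein-coding genes (24.1%) and at 55 of the 130 outside (42.3%). Their median position was 53 bp upstream, with quartiles at 90 and 19 bp upstream.

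The share of snoRNA genes with a start-proximal summit was highest among those with a sequence element, and the gap was widest inside protein-coding genes. The element patterns and this window were chosen after the values had been seen, so the gap is a description and not a test. The PSE-like element was found in the start-proximal window of 36 snoRNA genes (10.4%), against 0.484% of all genes and 24.0% of snRNA genes. The A and B box pair was found at 27 snoRNA genes (7.80%), against 0.134% of all genes. It was found at 1 of 612 tRNA genes (0.163%), where the window ends 50 bp into the gene and so does not cover the whole gene. Searched on the opposite strand, the same windows held 3 PSE-like elements and no box pair. The PSE-like element began 80 to 54 bases before the start (median 59), and the B box had a median start 14 bases before it. No start region overlapped an annotated tRNA gene in the 150 bp upstream. Of the 36 genes with the PSE-like element, 24 were members, 21 had a start-proximal summit and 12 a reproducible summit. Of the 27 with the box pair, 25 were members, 24 had a start-proximal summit and 19 a reproducible one. Of the 283 genes with neither, 170 were members, 62 had a start-proximal summit and 61 a reproducible summit. These reproducible summits are counted in the wider start window. A reproducible start-proximal summit was present at 10 genes with the PSE-like element, 17 with the box pair and 20 with neither.

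**Figure D3:**
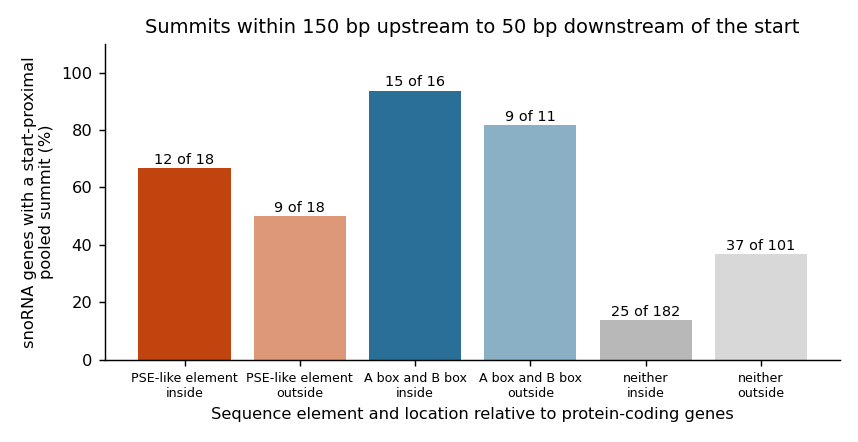
Share of snoRNA genes (y axis, %) with a pooled summit from 150 bp upstream to 50 bp downstream of the start, by sequence element and by location inside or outside a protein-coding gene (x axis). Counts stand above the bars. Inside genes the share is 12 of 18 with the PSE-like element, 15 of 16 with both boxes and 25 of 182 with neither.

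Inside protein-coding genes, a start-proximal summit was present at 12 of 18 genes with the PSE-like element, at 15 of 16 with the box pair and at 25 of 182 with neither (13.7%). Outside, the counts were 9 of 18, 9 of 11 and 37 with neither (36.6%). Most element-bearing members inside a gene had no summit in a protein-coding promoter window, namely 11 of 14 with the PSE-like element and 12 of 15 with the box pair. In other gene classes, 1 of 61 protein-coding genes and 10 of 31 snRNA genes with the PSE-like element had a start-proximal summit. Over all genes but snoRNA genes, the counts were 18 of 191 with the PSE-like element and 5 of 36 with the box pair. With or without an element, 4388 of these 46544 genes (9.43%) had a start-proximal summit.

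Among genes with the PSE-like element, Y53F4B.47 had the highest start signal, 165 in the pooled list, with 116 in replicate 1 and 46.1 in replicate 2. Its summit lay 93 bp upstream, on the flank of the element printed above, and also fell in the promoter window of cmtr-1, a cap methyltransferase gene. ZK994.7, in an intron of pxn-1, a peroxidasin gene, had a pooled signal of 106, with 66.2 and 47.6 in replicates 1 and 2. That summit lay 55 bp upstream and in no protein-coding promoter window. C16D9.11, in rol-3, a receptor tyrosine kinase gene, had 67.6 pooled and 48.2 and 20.5 in the replicates, with the summit 48 bp upstream. smy-2 encodes an SmY RNA, a nematode small RNA linked to spliced-leader trans-splicing, which the annotation carries among the snoRNA genes; it had 65.1 pooled and 40.5 and 30.1 in the replicates. T26A8.6, outside any protein-coding gene, had 54.4 pooled and 24.3 and 30.3 in the replicates. In these 5 genes, which were picked as examples, the summit lay between 93 and 38 bp upstream, in or beside the element. F59C6.15, F25H2.15, Y74C9A.6, C16D9.10, F47G4.9, C08D8.3 and Y37E3.20 completed the 12 reproducible ones, with best signals between 44.1 and 110. F59C6.15 (110), F25H2.15 (88.9) and Y74C9A.6 (82.2) had higher signals than C16D9.11, smy-2 and T26A8.6. The best summit of F59C6.15 lay 61 bp upstream, within an element that began 71 bases before the start. Those of F25H2.15 and Y74C9A.6 lay 36 and 23 bp upstream, past elements that began 67 and 60 bases before it. Of the 12, 9 had their best summit upstream of the start. For C08D8.3, F47G4.9 and Y37E3.20 it lay downstream, at 24, 110 and 170 bp.

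Of the 12 genes with the PSE-like element and no summit in the window, 6 had a near-identical copy of the RNA elsewhere in the genome (at least 95% identity), as did 7 of the 24 with a summit. Over all snoRNA genes, 12 of the 27 with such a copy were members, against 207 of the 319 without. Whether reads that align to several copies were kept is not given in the sources used here, and its part in these counts was not tested.

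Among genes with the box pair, C51F7.3 and C51F7.4 in frm-7, a FERM-domain gene, shared 1 summit with a pooled signal of 104 and replicate signals of 66.7 and 35.5. It lay 94 bp upstream of C51F7.3 and 15 bp inside C51F7.4, within the shared boxes printed above. Y75B12B.12 had 79.0 pooled and 49.4 and 28.0 in the replicates, at 58 bp upstream. T03F7.8, in the cuticlin-like gene cutl-18, had 64.1 pooled and 27.4 and 39.2 in the replicates, at 15 bp upstream. T10B9.11 had 56.0 pooled, and ranked 1985 in replicate 1 and 952 in replicate 2. M106.6 lies in mix-1, which encodes a condensin and dosage compensation subunit, and had 53.2 pooled and 36.5 and 20.2 in the replicates at 36 bp upstream. For these 4 genes outside frm-7, also picked as examples, the summit lay within or next to the boxes, between 58 and 15 bp upstream. The other 13 reproducible ones were F32E10.10, T08B2.13, ZK484.9, T19B4.8, F55A11.10, F12F6.11, T02E1.9, Y38F2AR.14, C05D2.15, Y43F8C.22, C41C4.11, T24H7.6 and C04G6.12, with best signals between 40.6 and 95.8. F32E10.10 (95.8), T08B2.13 (73.4) and ZK484.9 (72.3) had higher signals than T03F7.8, T10B9.11 and M106.6. Their best summits lay 66 bp downstream, 1 bp upstream and 4 bp downstream of the start, past the boxes. Over all 19, the best summit lay upstream of the start for 12 and downstream for 7, by 4 to 76 bp. Of these 7, C51F7.4 has its boxes within the annotated RNA, while ZK484.9, T24H7.6, F12F6.11, C41C4.11, F32E10.10 and Y43F8C.22 have their boxes upstream, so their best summit lay past the boxes. Only Y59E1B.14 and Y6B3B.15 had the box pair and no summit in the window, and Y6B3B.15 had 4 near-identical copies of its start region.

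The 6 members of highest signal all had their best summit in the promoter window of their own host gene. Except for that of C06A1.9, these summits also lay in the promoter window of another gene. That gene was K11H12.8 for K11H12.12 and K11H12.13, F54C9.14 for F54C9.12, and ska-3 for F54E7.10 and F54E7.11. Which of the genes such a summit belongs to cannot be told from position. In all, 50 members had a summit in the promoter window of their own same-strand host gene. This can occur only where the snoRNA lies near a start of its host. Of these 50, 32 had a reproducible summit in the snoRNA window, and the median best signal was 52.6, against 33.2 for all members. The hosts were also examined whatever lay near their snoRNA: of 159 same-strand hosts of any snoRNA gene, 117 (73.6%) had a pooled summit and 54 (34.0%) a reproducible summit in their own promoter window, against 38.3% and 8.55% of the 19706 protein-coding genes that host none. Their median best signals were 36.0 and 19.6.

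The top member was C06A1.9, in cdc-48.1, which encodes the p97-type AAA ATPase. Its best summit had a pooled signal of 637 and lay 500 bp upstream of the snoRNA and 157 bp upstream of the host start. It ranked 6 in the pooled list and 6 in each replicate, with signals of 434 and 232. F54C9.12, in iff-2, an eIF5A gene, had a signal of 295 at 670 bp upstream of the snoRNA and 75 bp upstream of the host start, with 18 and 25 as replicate ranks. F17C11.15, in the elongation factor gene eef-1G, had 177 at 990 bp upstream, the summit nearest to the far edge of the window, and 11 bp upstream of the host start. That summit also lay in the promoter window of ctf-4. Translation factor genes hosted 5 snoRNA genes in all, and the other 3, F17C11.14 in eef-1G and Y65B4A.10 and Y65B4A.11 in eif-4A3, had no summit in the window. K07C5.11 lies in nol-56, which itself encodes a core protein of box C/D particles, and had 84.7 in the pooled list and 47.5 and 39.6 in the replicates.

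Ribosomal protein genes hosted 19 snoRNA genes in 13 hosts, and 17 of them were members. All 17 had their best summit in the host's promoter window, and none had a start-proximal summit or an element. Apart from the summit of the pair in rpl-6, each of these summits also lay in the promoter window of another gene. Position alone therefore does not assign them to the host. In rpl-15, K11H12.12 and K11H12.13 shared a summit of signal 554, at rank 7, with 329 and 230 in replicates 1 and 2, 910 and 579 bp upstream of the snoRNA starts and 364 bp upstream of the nearest rpl-15 start. In rps-12, F54E7.10 and F54E7.11 shared a summit of signal 273, with 172 and 102 in the replicates. Y24D9A.9 and Y24D9A.10 in rpl-7A had 115, with 69.4 and 36.3 in the replicates, and F28D1.13 in rps-23 had 111, with 66.1 and 37.1. The other 7 reproducible ones, R151.11 and R151.12 in rpl-6, D1007.20 in rpl-24.1, F28C6.11 in rpl-26, B0041.9 in rpl-4, B0250.19 in rpl-2 and F53G12.12 in rpl-7, had signals between 49.8 and 88.2. Y24D9A.9, Y24D9A.10 and B0250.19 each had 1 near-identical copy of the start region elsewhere in the genome. The 3 members below the reproducible list were B0412.6 and B0412.7 in rps-29 (36.0) and C16A3.11 in rps-13 (35.6). The 17 members shared 12 distinct summits, so they are not 17 independent observations. Of the ribosomal protein genes themselves, 11 of the 13 that host a snoRNA (84.6%) had a reproducible promoter summit, against 44 of the 68 that host none (64.7%), so a summit there was common with or without a snoRNA.

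The remaining reproducible members with a summit in their own host's promoter window and no element were C02F5.15 (fbxl-1), F39B2.14 (tmem-107), B0393.10 (fbxl-2), Y49E10.36 (his-72, a histone H3.3 gene), D1046.6 (cfim-2), H06I04.8 and H06I04.9 (ubl-1, which encodes ubiquitin fused to a ribosomal protein), Y46G5A.40 (pisy-1), W06A7.12 (ret-1, a reticulon gene) and D2096.14 (nap-1, a nucleosome assembly gene). Their best signals ran from 40.3 to 108. The summit of F39B2.14 also lay in the promoter window of rps-26, and that of D2096.14 in that of praf-3. For W06A7.12 the reproducible summit was a different one, 696 bp upstream and in no promoter window. For C02F5.15 and F39B2.14 the snoRNA start and the host start were close enough that the summit was also start-proximal, at 88 and 74 bp upstream of the snoRNA. No host held 3 members, and 12 hosts held 2.

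Members with neither an element nor a summit at their own host numbered 124. Of these, 38 had a summit in some other protein-coding promoter window, and 15 had a reproducible summit in the start window. For T19E7.29 among the 15 the reproducible summit lay in no promoter window. The strongest were W06H8.17 (164), M7.15 (157), between klc-1 and the ubiquitin-conjugating enzyme gene let-70, and F07A11.15 (121), which lies antisense in din-1 and whose summit was at the downstream edge of the window, 200 bp from the start. M7.15 had a start-proximal summit, 35 bp upstream, with 80.4 and 77.0 in the replicates. The other 12, ZK20.9, D2021.6, F09G2.14, R166.10, T23G11.12, K02C4.8, T19E7.29, Y53F4B.48, F37F2.4, C36E8.11, ZK484.11 and ZK265.10, had best signals between 49.7 and 104. The 86 members with no summit in any protein-coding promoter window had a median best signal of 16.9, and 18 had a reproducible summit. T27A8.8 (186), W01H2.11 (100) and F37A8.7 (99.5) led these, and none of the 3 had a start-proximal summit. T27A8.8 had 1 near-identical copy of its start region elsewhere in the genome, and the handling of reads from copies is unknown. The other 15, C04A2.16, K10G6.10, C27H5.9, F11A10.9, T04A8.17, ZK643.9, H09I01.2, C18A3.24, K07C10.2, Y47D3B.25, T27A3.9, Y44A6C.3, W01C9.6, C27H6.5 and F42A8.4, had best signals between 40.8 and 70.0.

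**Figure D4:**
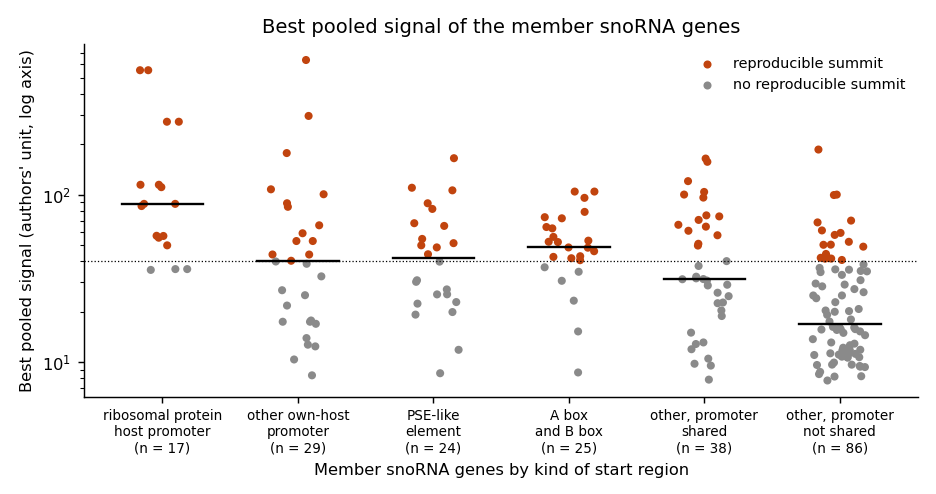
Best pooled signal of each member (y axis, the authors' unit, log axis) by kind of start region (x axis, number of members in brackets). Points are genes, bars are medians and the dotted line is the lowest signal of the reproducible list (40.3). Medians were 88.2 for ribosomal protein host promoters, 39.9 for other own-host promoters, 42.0 with the PSE-like element, 48.4 with both boxes, and 31.5 and 16.9 for the others with and without a shared promoter.

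Both replicate lists were read in the same windows. Of the 219 members, 208 had a summit of replicate 1 in the window, 190 one of replicate 2, 183 one of each and 4 none of either. All 92 members with a reproducible summit had one of each replicate. The pooled and reproducible lists were made from these same 2 replicates, so such matches are not independent evidence. Within the top 2490 of a replicate's list were 83 members for replicate 1 and 85 for replicate 2, and 68 were so in both. Over the 183 genes the ranks of the best summit in the replicates differed by a median factor of 1.68, and 7 genes had ranks more than 10 times apart. F37A8.7 ranked 307 in replicate 1 and 8923 in replicate 2, F32E10.10 ranked 208 and 2104, and D2096.14 ranked 8848 and 844. These 3 counted as reproducible, in a list that follows pooled signal, although 1 replicate placed them far lower. F32E10.10 was still within the top 2490 of both replicates, while F37A8.7 and D2096.14 were outside the top 2490 of 1. By kind of region, a summit of each replicate was present at 17 of the 17 ribosomal protein members, 23 of 25 with the box pair and 21 of 24 with the PSE-like element.

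**Figure D5:**
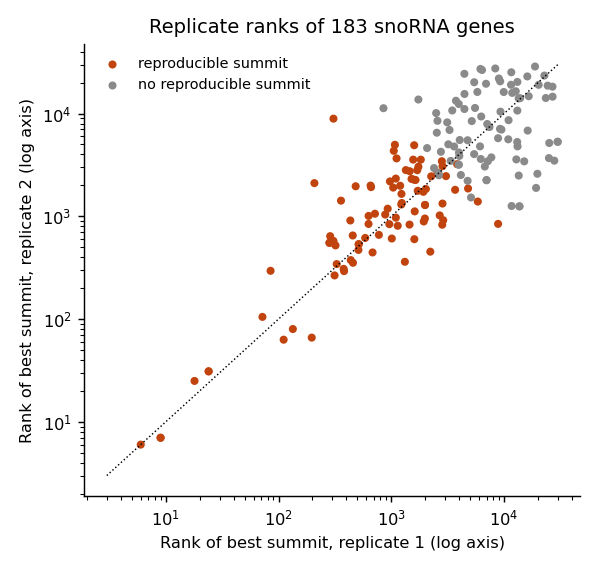
Rank of the best summit in the start window in replicate 1 (x axis, log) and replicate 2 (y axis, log) for the 183 members with a summit of each, with the dotted line at equal ranks. Colours mark members with a reproducible summit. The ranks differ by a median factor of 1.68, and 7 genes lie more than 10 times apart.

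The window and the list cut values continuously. Just inside the reproducible list were C04G6.12 (40.6, rank 2455) and D2096.14 (40.3, rank 2490), and just outside were Y17G7B.25 (40.1, rank 2520) and F55F1.11 (39.9, rank 2547). Among members with 1 summit, F17C11.15 (990 bp) and ZK632.18 (985 bp) lay nearest the upstream edge of the window, and E01A2.11 (200 bp) and Y41E3.464 (185 bp) nearest the downstream edge. The nearest summits of non-members lay 1090 bp upstream of R151.13 in rpl-6 and 1115 bp upstream of C09H10.19, and 217 bp downstream of K07C5.18 and 233 bp downstream of Y43B11AR.7 in rps-4. The 2 ribosomal protein snoRNA genes that were not members, R151.13 and Y43B11AR.7, thus had a summit just outside the window. Those summits had pooled signals of only 10.5 and 11.2, below the reproducible list. The 127 non-members had their nearest pooled summit at a median of 2726 bp.

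Box class was read from the sequence of each annotated RNA by simple letters. C/D form, TGATGA starting within the first 20 bases and CTGA within the last 20, fitted 15 genes, of which 12 were members, 10 had a start-proximal summit and 6 a reproducible one. H/ACA form, ACA starting 5, 6 or 7 bases before the end, fitted 75 genes, of which 53 were members, 18 had a start-proximal summit and 29 a reproducible one. The reproducible summits by box class are counted in the wider start window. Over all 346 snoRNA genes, 63.3% were members, 30.9% had a start-proximal summit and 26.6% a reproducible one. Of the 15 genes of C/D form, 5 had the PSE-like element and 4 the box pair, so their counts overlap those given by element. The H/ACA group held 14 of the 19 snoRNA genes inside ribosomal protein genes. The other 256 were left unclassed, 154 of them members and 57 with a reproducible summit, so most RNAs carry no class here. The letters miss C boxes with other bases and RNAs annotated with longer ends.

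Short motifs at the summits of members were each looked for on both strands from 50 bp before to 50 bp after the summit. TTGTCT or TTGTGT, forms of a site described for SEM-4, occurred at 39 of 209 distinct best summits (18.7%), against 14.5% of all 30000 pooled summits. At the 86 distinct best summits of reproducible members the share was 24.4%, against 18.6% of all reproducible summits. GAGAGA occurred at 12.8% of those 86, against 30.8% of all reproducible summits. CACGTG occurred at 3.49% of the 86, against 4.50% of all reproducible summits. The GATA-type TGATAA occurred at 5.81%, against 4.26%, and the AT-rich ATATT at 10.5%, against 13.4%. The shares were counted over summits and carry no test, and a match is not a shown binding site.

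Genes for core and assembly proteins of snoRNA particles, with some related factors, were looked up as a related list, chosen with earlier results known. Of 13 listed genes, 12 had a pooled summit in the promoter window and 9 a reproducible one, against 38.3% and 8.55% of the protein-coding genes that host no snoRNA. For the 68 ribosomal protein genes that host none, the shares were 89.7% and 64.7%, so the counts are not particular to this list. The listed nol-56 itself hosts 4 snoRNA genes, and its summit is the one given above for K07C5.11. fib-1, the fibrillarin gene, had 92.0 in the pooled list and 66.2 and 26.5 in replicates 1 and 2. The other core C/D protein genes were nol-56 (84.7), nol-58 (66.8) and snu-13 (64.8). Of the H/ACA core, nola-3 had 56.5, Y48A6B.3 had 48.6 and dkc-1, the dyskerin gene, had 48.3, while garr-1 had 22.0 and was not in the reproducible list. The assembly ATPase genes ruvb-1 and ruvb-2 had 52.8 and 62.5. dao-5 (14.6) and xrn-2 (16.0) had pooled summits below the list, and tgs-1 had none.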

How the data were processed

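SEM-4 ChIP-seq was deposited for 2 biological replicates of 1 group. Per the deposited text file lists, the authors called relaxed peaks on each replicate and on the pooled alignments, with a control, and derived the thresholded list by the irreproducible discovery rate. The signal value per peak is the authors' own and is used only within a list. Aligner, peak caller, threshold and versions are not given in the sources used here. No read counts are given, so depth is unknown.

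The ce11 lists were used. Every peak lay within the chromosome lengths of WBcel235, whose gene models came from Ensembl release 115. Summits were taken as 1-based positions, and a gene's start is its 5' end. A member lies inside a protein-coding gene when the gene spans it on either strand. Sequences were read from the RefSeq copy of the same assembly. Near-identical copies were found with blastn 2.17.0: at least 95% identity over 180 of 201 bases for start regions, or over 0.9 of the length of an RNA. The window code was checked on artificial positions with known answers. Python 3.11.15, numpy 2.4.6, pandas 2.3.3, scipy 1.17.1 and matplotlib 3.10.9 were used.

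All results are descriptions with no test, because the members and lists were chosen with earlier results of these data known. Genes named are the 20 members of highest signal, the top 3 of each class, all members with a reproducible summit, those at the edges of the rule, hosts of 3 or more members and particle protein genes. Lists on ce10 were left out, so that 1 assembly was used throughout. The promoter elements and the start-proximal window were chosen after the values were seen. Alternatives used other windows, lists and overlap rules.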

Additional observations from a re-analysis of the deposited data

How the results depend on the processing

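Counts and shares were recomputed under the alternatives set for them and under 2 chosen after seeing the data, which left out genes with a near-identical copy of the start region or of the RNA. Without these, members numbered 213 and 207, and those with a reproducible summit 88 and 85. With a window of 500 bp upstream to 100 bp downstream, members inside a protein-coding gene numbered 85 instead of 128, and members with a summit in a protein-coding promoter window 63 instead of 99. Among the 1245 reproducible peaks of higher signal, 53 members had a summit, against 92. With a window of 600 bp to each side, 67.5% of best summits lay upstream, against 84.0%, so that share depends on the shape of the window. With 1 replicate alone, the members ranged from 214 to 224, those with a top-2490 summit from 83 to 86 and those inside a gene from 125 to 130, while those sharing a promoter numbered 90 with replicate 2 alone. The other alternatives moved a count by less than 1.5 times. The median best signal of members was 33.2, against 31.3 with the window of 500 bp upstream to 100 bp downstream. It was 32.4 with each distinct best peak counted once, and the share upstream was then 83.3%. No paired analysis was possible because there is 1 group. Depth is unknown, so absence of a summit is absence from the lists only.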
